A study of Mus musculus with 12 samples.

Results

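Interferon-stimulated genes were followed in primary mouse embryonic fibroblasts that lack HtrA2, a protease that resides between the mitochondrial membranes, and in wild-type fibroblasts. The 41 genes listed are well-known targets of type I and type II interferon, and 35 of them, among the 12393 genes that could be named singly on the arrays, had a probe set annotated with that gene alone. Where a gene had more than 1 such probe set, as 10 did, the one with the highest mean over the 12 arrays stood for it. The other 6 genes (Isg15, Oas1g, Ddx58, Ifi44, Xaf1 and Samd9l) had no probe set of their own among those used and were not analysed here. A single probe set annotated to both Isg15 and its copy Gm9706 is described among the other observations.

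The 12 arrays form 4 groups of 3: HtrA2 knockout (KO) cells with 1 µM rotenone for 4 h, KO cells with vehicle for 4 h, wild-type (WT) cells with rotenone and WT cells with vehicle. All cells were primary fibroblasts at passage 4 in serum-containing medium, and rotenone blocks the first complex of the respiratory chain. The labels do not give the deleted part of HtrA2, the mouse strain, the age of the embryos or how many embryos were used, and a whole-body knockout line need not show what an acute loss would do. The genotype entry of the 3 WT rotenone arrays reads knockout, against their titles, sources and descriptions; the brighter Htra2 probe set lay between 9.02 and 9.14 on those arrays, inside the WT range of 8.83 to 9.32 and above the KO range of 7.57 to 7.87, so they were kept as WT. A second, dimmer Htra2 probe set showed no loss (0.32 higher in KO, limma adjusted p = 0.809).

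Every level here is an RMA value on the log2 scale, so a difference of 1 is a doubling, and every difference is KO minus WT or rotenone minus vehicle unless said otherwise. Adjusted p-values come from limma with Benjamini-Hochberg adjustment over 22626 probe sets, and a gene was called at an adjusted p under 0.05. The labels number the replicates 1 to 3 in each group. Arrays numbered 3 stood apart from the others in all 4 groups (first principal component, 44.7% of the variance), and same-numbered arrays deviated together, so the fit with the number as a block is given wherever it alters a call. Nothing in the labels says that replicates came from separate embryos or cultures, so p-values measure only the spread between these samples.

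Interferons are secreted when sensors of viral RNA or DNA fire; type I interferon acts through the receptor chains IFNAR1 and IFNAR2 and the kinases JAK1 and TYK2, which activate a complex that holds STAT2 and IRF9. This complex binds the interferon-stimulated response element (ISRE) in the promoters of target genes, whereas interferon gamma acts mainly at the GAS element. Fibroblasts respond to interferon and are a classical source of interferon beta, and they hold a low tonic level of many of these genes without infection.

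Letters of the ISRE core stand in many promoters of the members. Of the 35 members, 27 had a promoter in the RefSeq table of GRCm38.p6 (250 bases before to 50 after the annotated start), and 16 of the 27 (59.3%) held the ISRE core (GAAA, any 2 bases, GAAA) on either strand, against 3.99% of 27025 genes. The GAS core TTCNNNGAA, which reads the same on both strands, occurred in 10 of the 27 (37.0%), against 9.55% of all genes; matches to the ISRE core may overlap each other. The 160 bases upstream of the start are printed 5′ to 3′ on the gene's strand for Ifit1 and Bst2, which were called higher in KO with the number as a block, for Ifit3 and Irgm1, which differed between replicate numbers, and for Ifit2, which was called for rotenone with the block. Capitals mark matches to the ISRE core. Ifit1 (chr19:34640729-34640888, plus strand) holds a pair of matches:
Ifit1: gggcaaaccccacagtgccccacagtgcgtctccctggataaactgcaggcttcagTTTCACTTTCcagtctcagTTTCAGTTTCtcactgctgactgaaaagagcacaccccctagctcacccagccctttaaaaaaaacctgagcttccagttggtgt
Ifit3 (chr19:34583369-34583528, plus strand) also holds a pair:
Ifit3: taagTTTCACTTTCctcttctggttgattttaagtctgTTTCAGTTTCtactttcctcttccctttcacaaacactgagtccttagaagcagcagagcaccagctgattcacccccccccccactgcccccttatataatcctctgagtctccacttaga
In Bst2 (chr8:71537473-71537632, minus strand) and Irgm1 (chr11:48871421-48871580, minus strand) 2 matches overlap:
Bst2: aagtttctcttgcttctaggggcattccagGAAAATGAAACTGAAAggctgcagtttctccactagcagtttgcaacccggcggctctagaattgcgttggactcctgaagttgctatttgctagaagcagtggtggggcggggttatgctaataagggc
Irgm1: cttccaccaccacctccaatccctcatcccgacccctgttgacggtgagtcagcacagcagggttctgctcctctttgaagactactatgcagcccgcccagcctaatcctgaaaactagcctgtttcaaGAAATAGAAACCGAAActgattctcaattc
Ifit2 has 2 annotated starts, and neither window (chr19:34550534-34550693 and chr19:34550928-34551087, plus strand) holds these letters, which says only that the core is not in these windows:
Ifit2 start 1: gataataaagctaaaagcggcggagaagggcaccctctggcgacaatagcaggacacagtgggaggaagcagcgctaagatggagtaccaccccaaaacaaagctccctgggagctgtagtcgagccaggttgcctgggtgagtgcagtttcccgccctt
Ifit2 start 2: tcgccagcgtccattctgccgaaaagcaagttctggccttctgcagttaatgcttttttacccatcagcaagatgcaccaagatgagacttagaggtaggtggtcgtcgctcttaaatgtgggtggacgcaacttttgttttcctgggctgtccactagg
Usp18, Dhx58, Iigp1, Mx1, Mx2, Oas2, Parp14 and Rtp4 were not in the promoter table.

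Signals of the members were low. Their probe sets had a median level of 6.95, against 7.55 over all probe sets, and 27 of the 35 lay below the median level of all. Levels of different probe sets cannot be ranked against each other as transcript amounts, and no detection calls were used, so for the dim ones it is unknown how much of the signal lies above background. Most members also varied little: the range over the 12 arrays was 0.53 in the median member, 0.34 for Irf9 at the narrow end and 1.93 for Ifit2 at the wide end. Irgm1 (1.32) and Trim25 (1.03) had the next widest ranges, and Mx1 (0.36) and Eif2ak2 (0.38) the next narrowest. In bulk RNA, fewer cells that express a gene and less RNA per cell cannot be told apart.

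KO cells had slightly higher signals than WT cells for most interferon-stimulated genes. In the mean of the rotenone and vehicle comparisons, 6 KO against 6 WT arrays, 32 of the 35 members had a positive difference and the median difference was 0.12, against 54.6% positive and a median of 0.01 over all probe sets. The largest were Ifit1 at 0.38, Usp18 at 0.36 and Bst2 at 0.32, or 1.30-fold, 1.28-fold and 1.25-fold. No member passed limma without the block in this comparison (8 had an unadjusted p under 0.05, against 5.99% of all probe sets), where 2 of 22626 probe sets did (0.00884%). With the number as a block these 3 genes were called, 3 of 35 members against 125 of 22626 probe sets (0.552%); higher calls alone made up 0.137% of all probe sets.

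Dim probe sets in general shifted the same way. Among the 11313 probe sets below the median level 68.0% had a positive mean difference, with a median of 0.04, so a shift towards KO was not particular to the members. Of the 27 members below that level, Ifit1 and Usp18 among them, 25 were positive (median 0.13). Of the 8 brighter members 7 were positive (median 0.10). The part of this shift in the members' differences was not tested.

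**Figure D1:**
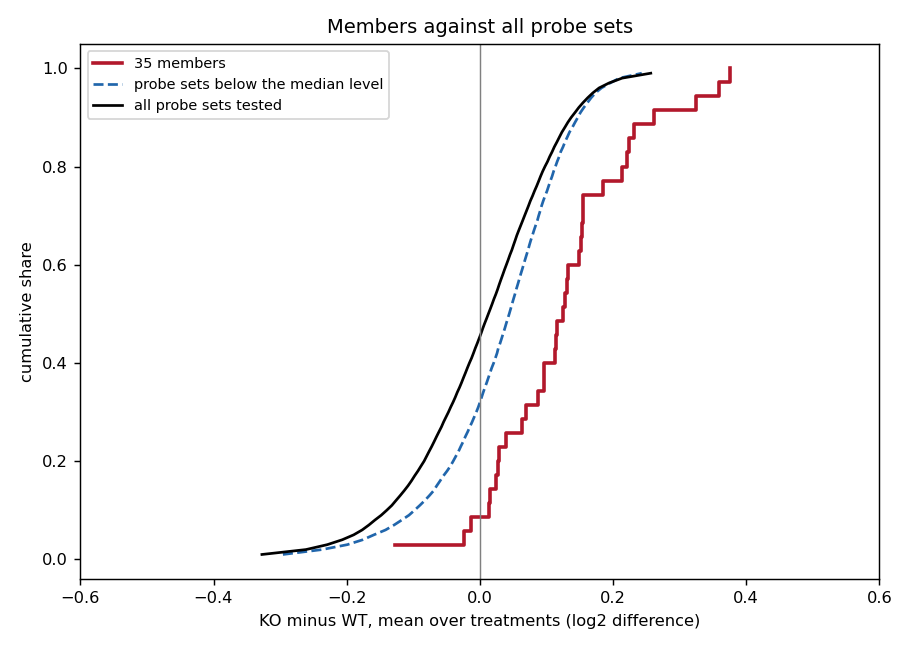
Cumulative share (y axis) of the KO minus WT difference averaged over treatments (x axis, log2) for the 35 members, for probe sets below the median level and for all 22626 probe sets. The members' curve lies to the right of both others, with medians of 0.12, 0.04 and 0.01.

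Usp18, Trim25 and Trim30a are regulators of the response, and Usp18 stood out among them. Usp18 encodes the protease that removes ISG15 from proteins and that dampens signalling at IFNAR2. Usp18 read 6.73, 6.71 and 6.49 on the KO rotenone arrays against 6.43, 6.34 and 5.996 on the WT rotenone arrays, and 6.73, 6.65 and 6.25 on the KO vehicle arrays against 6.16, 6.23 and 6.25 on the WT vehicle arrays. The KO and WT arrays did not overlap within either treatment, although in vehicle the KO array numbered 3 stood barely above its WT partner. Its mean difference was 0.36 (SE 0.10, adjusted p = 0.757; with the block SE 0.08, adjusted p = 0.0493), positive in 6 of 6 same-numbered pairs. Usp18 was the only member assigned to chromosome 6, which also holds Htra2.

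Trim30a encodes a TRIM protein known in mouse as a brake on Toll-like receptor signalling, and Trim25 the ubiquitin ligase that activates RIG-I. Levels of Trim30a were 6.73, 6.996 and 6.53 in KO rotenone and 6.59, 6.74 and 6.26 in WT rotenone cells, and 6.90, 6.60 and 6.52 in KO vehicle and 6.40, 6.61 and 6.36 in WT vehicle cells. The genotypes overlapped in both treatments, and its difference of 0.22 was not called (adjusted p with the block 0.26). Trim25 read 8.39, 8.76 and 8.09 on the KO rotenone arrays against 7.98, 8.38 and 9.01 on the WT rotenone arrays, and 8.80, 8.88 and 8.38 on the KO vehicle arrays against 8.59, 8.62 and 8.55 on the WT vehicle arrays. The genotypes overlapped in both treatments: the KO arrays numbered 1 and 2 lay above their WT partners and KO rotenone number 3 lay 0.92 below its partner, and the mean difference was 0.03.

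The IFIT proteins bind viral RNA and hold back its translation. Ifit1 read 6.40, 6.44 and 6.39 on the KO rotenone arrays against 5.84, 6.07 and 5.88 on the WT rotenone arrays, and 6.25, 6.40 and 6.10 on the KO vehicle arrays against 5.80, 6.11 and 6.02 on the WT vehicle arrays. All KO rotenone arrays exceeded all WT arrays of both treatments, whereas in vehicle the lowest KO and highest WT values overlapped narrowly. Its difference was 0.48 in rotenone and 0.27 in vehicle, and the mean over both 0.38 (SE 0.08, adjusted p = 0.393; with the block SE 0.07, adjusted p = 0.0235), positive in 6 of 6 pairs. Ifit3 read 6.78, 6.82 and 6.77 on the KO rotenone arrays against 6.59, 6.50 and 6.19 on the WT rotenone arrays, and 6.77, 6.67 and 6.36 on the KO vehicle arrays against 6.59, 6.52 and 6.39 on the WT vehicle arrays. Its KO and WT arrays did not overlap in rotenone (0.37, adjusted p = 0.835) but overlapped in vehicle (0.10). Ifit2 was not called in either treatment: its difference was -0.19 in rotenone and 0.17 in vehicle. Between the rotenone arrays numbered 1, 2 and 3 it was 0.18, -0.13 and -0.63, so that number 3 set the sign of the rotenone mean.

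Among the other antiviral effectors, Bst2 separated the genotypes on every array. It encodes tetherin, which holds budding virus particles at the cell surface. Levels of Bst2 were 8.01, 7.92 and 8.12 in KO rotenone and 7.70, 7.59 and 7.67 in WT rotenone cells, and 7.94, 8.07 and 8.12 in KO vehicle and 7.77, 7.78 and 7.71 in WT vehicle cells. The lowest of the 6 KO arrays lay above the highest of the 6 WT arrays, and Bst2 was the 1 member for which this held, among 0.141% of all probe sets. Its mean difference was 0.32 (SE 0.06, adjusted p = 0.283; with the block SE 0.06, adjusted p = 0.0393). Its signal lay above the median level of all probe sets, and it remained called with the block when the probe sets under the 40th percentile were left out.

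**Figure D2:**
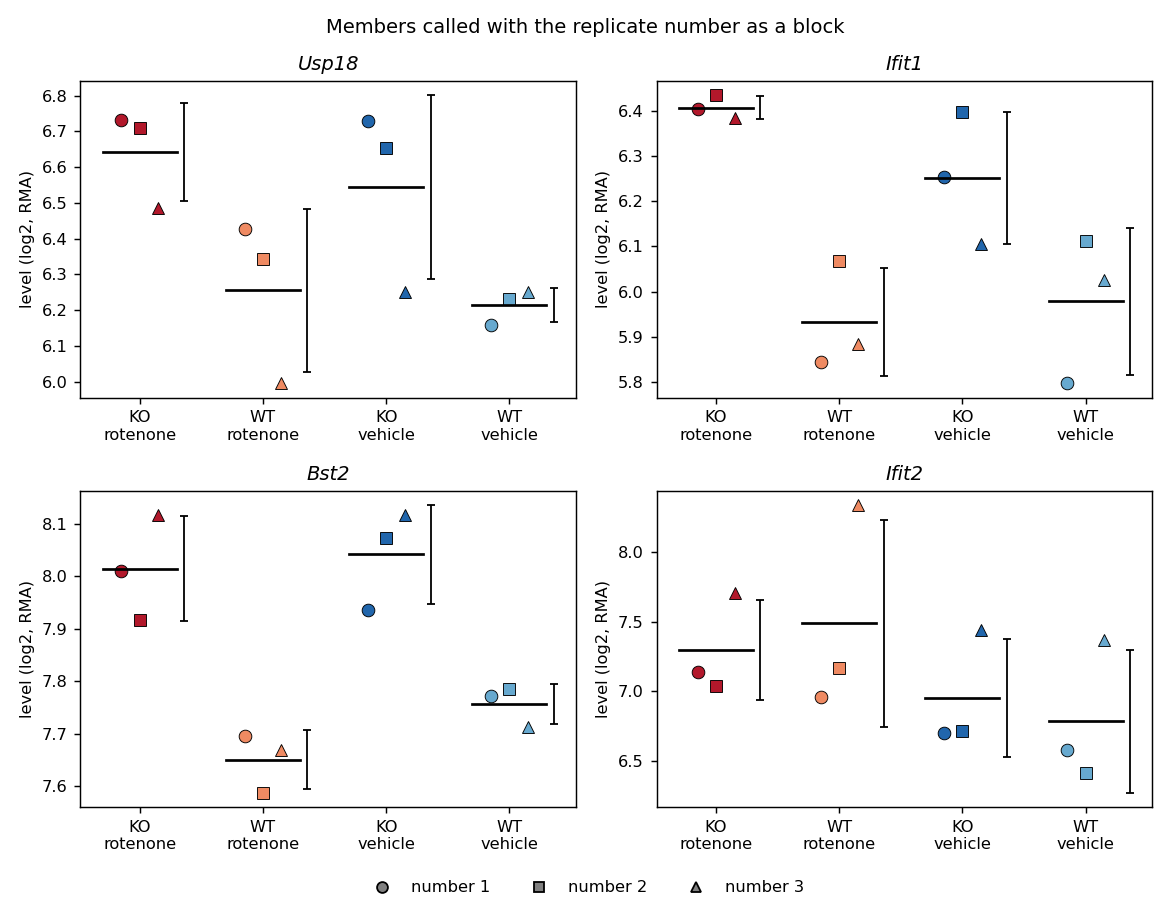
Level (y axis, log2 RMA value) of Usp18, Ifit1, Bst2 and Ifit2 on each array, by group (x axis) and replicate number (symbol), with the group mean as a line and the SD (n = 3) as a bar beside it. KO arrays of Bst2 lie at 7.92 or above and WT arrays at 7.78 or below, while for Ifit2 the arrays numbered 3 are the highest of each group.

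Several effectors separated the genotypes in rotenone only by small steps. Mx1 encodes a dynamin-like GTPase that blocks influenza virus in mouse, and Mx2 its cytoplasmic relative. Mx1 read 4.18, 4.38 and 4.38 on the KO rotenone arrays against 4.15, 4.11 and 4.04 on the WT rotenone arrays, and 4.17, 4.13 and 4.02 on the KO vehicle arrays against 4.18, 4.21 and 4.06 on the WT vehicle arrays. Mx2 read 7.48, 7.62 and 7.60 on the KO rotenone arrays against 7.37, 7.33 and 7.40 on the WT rotenone arrays, and 7.70, 7.41 and 7.42 on the KO vehicle arrays against 7.35, 7.59 and 7.28 on the WT vehicle arrays. Mx1 differed by 0.21 in rotenone and -0.04 in vehicle, Mx2 by 0.20 and 0.11. Rtp4 read 7.04, 6.96 and 7.28 on the KO rotenone arrays against 6.92, 6.62 and 6.83 on the WT rotenone arrays, and 6.94, 6.92 and 6.83 on the KO vehicle arrays against 6.61, 6.88 and 6.82 on the WT vehicle arrays. Rtp4, a chaperone of some membrane receptors that is induced by interferon, was higher in KO in all 6 pairs, by 0.30 in rotenone and 0.12 in vehicle. Parp14 encodes an ADP-ribosyltransferase. Levels of Parp14 were 6.40, 6.38 and 6.38 in KO rotenone and 6.22, 6.06 and 6.35 in WT rotenone cells, and 6.42, 6.45 and 6.11 in KO vehicle and 6.07, 6.47 and 6.28 in WT vehicle cells. Its difference was 0.18 in rotenone and 0.05 in vehicle. Ifitm3 read 11.99, 12.06 and 12.30 on the KO rotenone arrays against 11.91, 11.95 and 11.71 on the WT rotenone arrays, and 11.98, 12.02 and 12.31 on the KO vehicle arrays against 12.15, 12.05 and 12.31 on the WT vehicle arrays. Ifitm3, which blocks virus entry at endosomes and gave the brightest signal of the group, differed by 0.26 in rotenone and -0.06 in vehicle; WT rotenone number 3 was its lowest array. None of these 5 was called in either fit.

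Rsad2 (viperin), Ifi35, Eif2ak2 (the kinase PKR, which halts translation on double-stranded RNA) and Isg20 (a nuclease that degrades RNA) showed no such separation. Rsad2 read 7.67, 7.55 and 7.54 on the KO rotenone arrays against 7.59, 7.57 and 7.46 on the WT rotenone arrays, and 7.46, 7.39 and 7.35 on the KO vehicle arrays against 7.31, 7.67 and 7.27 on the WT vehicle arrays. Ifi35 read 8.33, 8.37 and 8.01 on the KO rotenone arrays against 8.40, 8.02 and 8.05 on the WT rotenone arrays, and 8.73, 8.41 and 8.31 on the KO vehicle arrays against 8.50, 8.35 and 8.27 on the WT vehicle arrays. Both overlapped between genotypes in each treatment, with mean differences of 0.02 and 0.10. Levels of Eif2ak2 were 6.74, 7.11 and 6.82 in KO rotenone and 6.79, 7.03 and 6.99 in WT rotenone cells, and 6.95, 6.96 and 7.05 in KO vehicle and 6.88, 7.09 and 7.01 in WT vehicle cells. Isg20 read 7.96, 8.16 and 7.74 on the KO rotenone arrays against 8.22, 8.29 and 7.66 on the WT rotenone arrays, and 7.92, 7.91 and 7.67 on the KO vehicle arrays against 8.17, 8.07 and 7.72 on the WT vehicle arrays. The genotypes of both genes overlapped in each treatment. Eif2ak2 (-0.02) and Isg20 (-0.13) were, with Ifit2 (-0.01), the members whose mean difference was negative. The sign for Eif2ak2 depended on the probe set: another one (mean level 6.86 against 6.95) was 0.14 higher in KO. That difference was not called (limma adjusted p with the block 0.378). With the probe sets of each gene averaged, 33 members were positive. Adar, the adenosine deaminase that edits double-stranded RNA, differed by 0.02.

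Oligoadenylate synthetases make the messenger that switches on RNase L. All 5 measured members of the family had positive mean differences, from 0.12 to 0.22, and none was called. Oas1a read 7.78, 7.71 and 8.26 on the KO rotenone arrays against 7.64, 7.64 and 7.80 on the WT rotenone arrays, and 7.69, 7.69 and 7.85 on the KO vehicle arrays against 7.59, 7.73 and 7.80 on the WT vehicle arrays. Oasl1 read 6.52, 6.60 and 6.73 on the KO rotenone arrays against 6.37, 6.44 and 6.46 on the WT rotenone arrays, and 6.45, 6.48 and 6.57 on the KO vehicle arrays against 6.39, 6.68 and 6.30 on the WT vehicle arrays. KO and WT arrays of Oas1a overlapped in both treatments, those of Oasl1 in vehicle. The largest difference of the family was that of Oas3 (0.22, adjusted p = 0.809), and Oas2 and Oasl2 differed by 0.12 and 0.13.

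The interferon-inducible GTPases act on the membranes of vacuoles that hold intracellular pathogens. All 5 were positive in the mean, from 0.07 to 0.19, and none was called. Levels of Gbp3 were 4.54, 4.76 and 4.71 in KO rotenone and 4.41, 4.38 and 4.45 in WT rotenone cells, and 4.40, 4.60 and 4.42 in KO vehicle and 4.34, 4.43 and 4.31 in WT vehicle cells. Iigp1 read 6.04, 6.15 and 6.13 on the KO rotenone arrays against 6.02, 6.02 and 5.96 on the WT rotenone arrays, and 5.997, 6.07 and 6.04 on the KO vehicle arrays against 5.66, 6.34 and 5.998 on the WT vehicle arrays. Gbp3 was higher in KO in all 6 pairs (0.26 in rotenone, 0.12 in vehicle), and Iigp1 overlapped widely in vehicle. Irgm1 read 9.37, 9.37 and 8.40 on the KO rotenone arrays against 8.98, 9.08 and 8.79 on the WT rotenone arrays, and 9.53, 9.73 and 8.68 on the KO vehicle arrays against 9.43, 9.13 and 8.78 on the WT vehicle arrays. Irgm1, a regulator of the other immunity-related GTPases, was higher in KO in numbers 1 and 2 and had its lowest array in KO rotenone number 3. Igtp was higher in KO in all 6 pairs (mean 0.15), and Gbp2 differed by 0.13.

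The sensors of viral RNA, Ifih1 (MDA5) and Dhx58 (LGP2), were both positive. Ifih1 read 7.25, 7.43 and 7.25 on the KO rotenone arrays against 6.99, 6.999 and 7.32 on the WT rotenone arrays, and 7.40, 7.38 and 7.13 on the KO vehicle arrays against 6.91, 6.91 and 7.16 on the WT vehicle arrays. In numbers 1 and 2 the KO arrays of Ifih1 exceeded their WT partners by 0.27 to 0.50, and in number 3 they differed by -0.07 in rotenone and -0.03 in vehicle. Its mean difference of 0.26 was not called (adjusted p = 0.809; with the block 0.216), and Dhx58 differed by 0.11.

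Among the transcription factors, Irf1, Irf9 and Stat2 had mean genotype differences of at most 0.06. Levels of Irf9 were 6.10, 6.08 and 6.04 in KO rotenone and 5.999, 6.04 and 5.99 in WT rotenone cells, and 6.07, 6.02 and 6.09 in KO vehicle and 6.20, 6.07 and 5.86 in WT vehicle cells. Stat2 read 7.15, 7.06 and 7.20 on the KO rotenone arrays against 7.09, 7.44 and 6.95 on the WT rotenone arrays, and 7.13, 6.97 and 7.09 on the KO vehicle arrays against 6.82, 7.14 and 6.78 on the WT vehicle arrays. The genotypes overlapped for Stat2 in both treatments and for Irf9 in vehicle. Irf9 and Stat2, subunits of the complex that binds the ISRE, had mean differences of 0.04 and 0.06. Irf1 read 8.75, 8.83 and 9.22 on the KO rotenone arrays against 8.85, 8.82 and 9.02 on the WT rotenone arrays, and 8.82, 8.79 and 9.08 on the KO vehicle arrays against 8.79, 8.97 and 8.96 on the WT vehicle arrays. Irf1, a factor induced by interferon gamma, overlapped in both treatments and differed by 0.01, and Irf7, which amplifies type I interferon production, by 0.15, positive in 5 of 6 pairs. Tap1, the peptide transporter of class I antigen presentation, differed by 0.03. Cxcl10 read 7.02, 7.03 and 7.11 on the KO rotenone arrays against 6.73, 6.94 and 6.95 on the WT rotenone arrays, and 6.98, 6.84 and 7.02 on the KO vehicle arrays against 6.57, 6.70 and 7.18 on the WT vehicle arrays. For Cxcl10, a chemokine that draws T cells, the genotypes did not overlap in rotenone (0.18), and in vehicle they did (0.13).

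**Figure D3:**
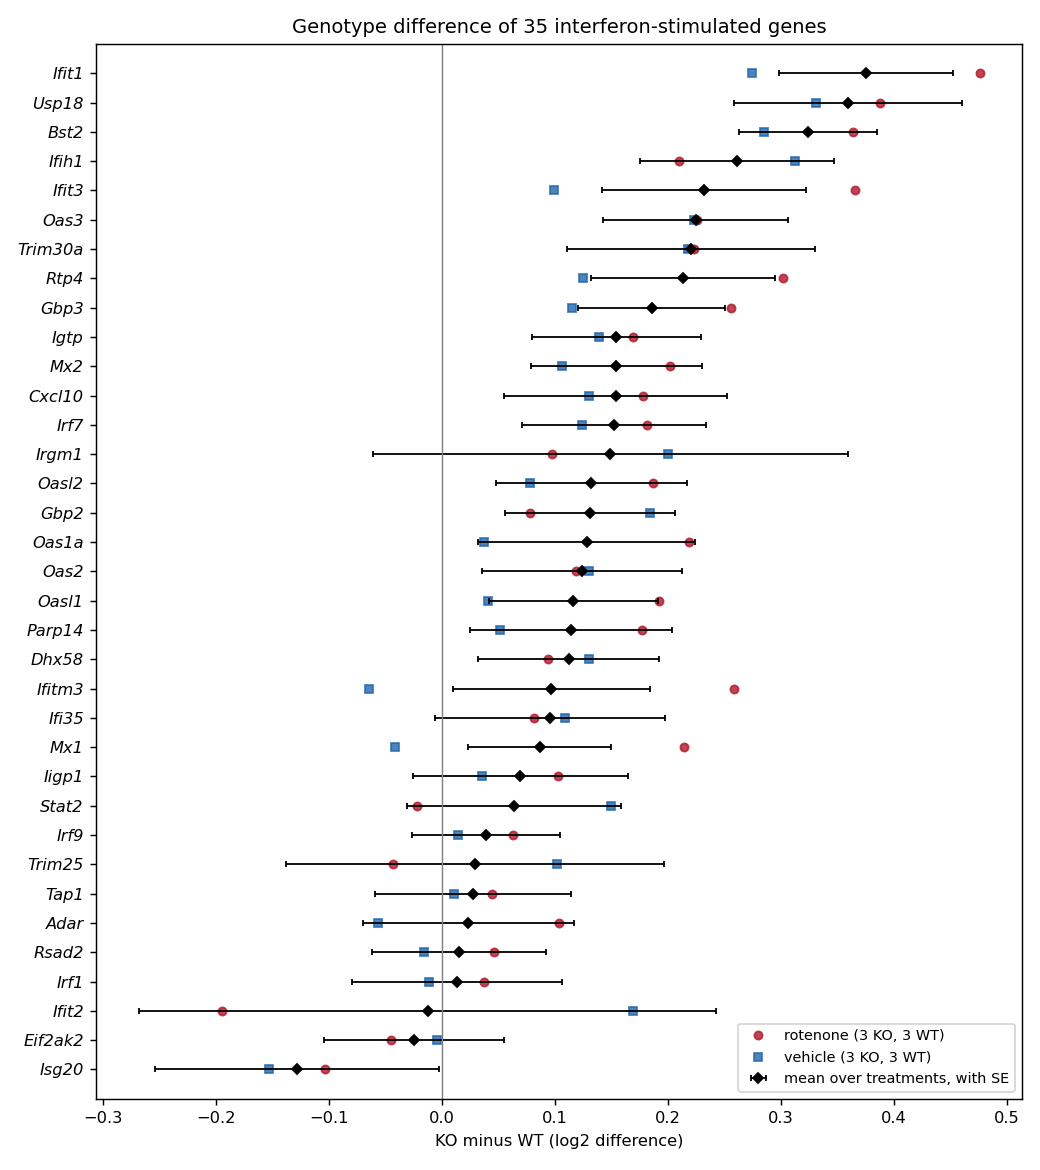
KO minus WT difference (x axis, log2) of each of the 35 members (rows) in rotenone (circles), in vehicle (squares) and averaged over both (diamonds with SE from limma without a block). Ifit1, Usp18 and Bst2 stand at the top with means of 0.38, 0.36 and 0.32, and 3 members lie below 0.

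Groups of arrays without overlap were counted within each treatment. In rotenone 14 of the 35 members had all 3 KO arrays above all 3 WT arrays and none had them all below, against 7.92% of all probe sets above and 3.8% below; among the probe sets under the median level 11.6% lay above and 2.63% below, and 12 of the 27 members there lay above. The 14 were Irf9, Usp18, Ifit1, Ifit3, Oasl1, Mx1, Mx2, Bst2, Rtp4, Ifitm3, Parp14, Gbp3, Iigp1 and Cxcl10. In vehicle 2 members, Usp18 and Bst2, were above without overlap and none below, against 2.15% and 1.79% of all probe sets. No member was called by limma in either treatment, with or without the block. In rotenone 1 of 22626 probe sets was called without it (0.00442%) and 9 with it (0.0398%), 8 of them lower in KO (0.0354%). There 7 members had an unadjusted p under 0.05 (10 with the block), against 5.57% of all probe sets (13% with the block). In vehicle 1 probe set was called (0.00442%), 4 with the block (0.0177%), and 4 members had an unadjusted p under 0.05 (5 with the block), against 1.04% (2.95%). Whether the genotype difference depended on rotenone was tested as the interaction: no member passed in either fit, none had an unadjusted p under 0.05 (0.362% of all probe sets, 1.3% with the block), and no probe set was called (0%). The members' median difference was 0.18 in rotenone and 0.11 in vehicle, and single arrays moved both. With the block, the rotenone median was 0.11 without WT rotenone number 2, and the vehicle median was 0.05 without KO vehicle number 1 and 0.04 without WT vehicle number 1. Without all arrays numbered 1 the vehicle median was 0.03.

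Set against partners of the same number, the members were higher in KO in most pairs, with vehicle number 2 as the exception. In rotenone 29, 29 and 27 of 35 were higher in numbers 1, 2 and 3, against 53.3%, 54.2% and 54.6% of all probe sets. In vehicle 31, 15 and 25 of 35 were higher, against 58.2%, 43.9% and 49.6%. Among probe sets below the median level the shares were 61.4%, 57.8% and 67.3% in rotenone and 74.1%, 31.4% and 59.9% in vehicle. The high count in vehicle number 1 and the low count in number 2 thus went the same way as dim probe sets in general. The mean level over the 35 members was 7.12, 7.18 and 7.13 on the KO rotenone arrays against 6.99, 7.01 and 6.99 on the WT rotenone arrays, and 7.13, 7.10 and 7.02 on the KO vehicle arrays against 6.92, 7.07 and 6.96 on the WT vehicle arrays. WT vehicle number 1 had the lowest mean of all 12 arrays and WT vehicle number 2 the highest of the WT arrays. Of the 35 members 6 (Usp18, Ifit1, Bst2, Rtp4, Gbp3 and Igtp) were higher in KO in all 6 pairs, as were 3.04% of all probe sets. No member was lower in all 6, against 3.99% of all probe sets.

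**Figure D4:**
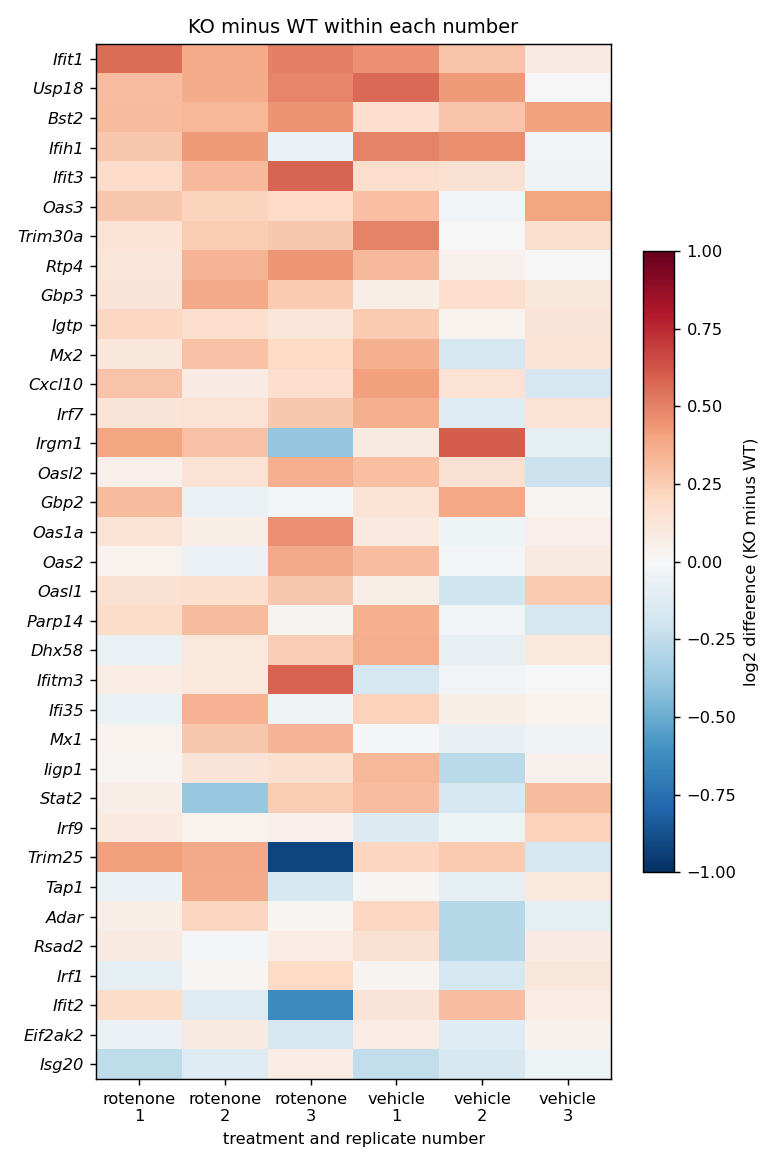
KO minus WT difference (colour, log2, red higher in KO) of each member (rows, ordered by mean difference) within each treatment and replicate number (columns). Red fills most of the rotenone columns and vehicle number 1, and vehicle number 2 is mixed, with 15 of 35 members higher.

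The genotype difference, averaged over treatments, had a median over the members of 0.18 in number 1, 0.10 in number 2 and 0.15 in number 3. Whether it differed between numbers was tested with an F-test of genotype by number: no member was called, against 172 of 22626 probe sets (0.760%), and 4 members had an unadjusted p under 0.05, against 12.7% of all. These were Irgm1 (0.24, 0.45 and -0.24 in numbers 1, 2 and 3, adjusted p = 0.153), Trim25 (0.31, 0.32 and -0.55, adjusted p = 0.169), Stat2 (0.18, -0.28 and 0.28, adjusted p = 0.172) and Ifih1 (0.38, 0.45 and -0.05, adjusted p = 0.240).

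The calls of Usp18, Ifit1 and Bst2 with the block depended on single arrays. When 1 array at a time was left out, Ifit1 stayed called for 4 of 12 arrays (all numbered 3), Usp18 for 2 and Bst2 for 1, with highest adjusted p-values of 0.119, 0.220 and 0.140, although their differences stayed between 0.34 and 0.41, 0.31 and 0.43, and 0.30 and 0.36. Without the 4 arrays numbered 3, Usp18 and Ifit1 were also called with no block (adjusted p = 0.0144 and 0.0402), and without those numbered 1 or 2 none of the 3 was called in either fit. With the number as a random effect in place of a fixed one no member was called. The share of all probe sets called in that fit is not reported here.

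With the number as a block, rotenone raised 1 member, Ifit2, whose protein binds RNA and promotes death of infected cells. Ifit2 read 7.14, 7.04 and 7.70 on the KO rotenone arrays against 6.70, 6.71 and 7.44 on the KO vehicle arrays, and 6.96, 7.17 and 8.34 on the WT rotenone arrays against 6.57, 6.41 and 7.37 on the WT vehicle arrays, in the order of numbers 1, 2 and 3. Every rotenone array exceeded its same-numbered vehicle partner, but arrays numbered 3 were so high that the groups overlapped. The mean rotenone effect was 0.52, or 1.44-fold (SE 0.26, adjusted p = 0.661; with the block SE 0.09, adjusted p = 0.00519). With the block Ifit2 was 1 of 35 members called (2.86%) against 557 of 22626 probe sets (2.46%), so the share was near the background. Without the block no member was called, against 49 probe sets (0.217%), and 1 member had an unadjusted p under 0.05 (4 with the block), against 7.9% of all (15%). With the block Ifit2 stayed called in the mean effect whichever single array was left out (highest adjusted p 0.0304), but not without all arrays numbered 1 or 2.

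Within each genotype the rotenone effect on Ifit2 was 0.34 in KO cells, which was not called, and 0.71 in WT cells, which was called with the block (adjusted p = 0.0200; without it 0.99987). WT rotenone number 3, at 8.34, was the highest of all its arrays, and leaving it out with the block brought the WT effect to 0.53 and the mean effect to 0.44, both still called. The WT call was lost when WT rotenone number 2 or any 1 of the 3 WT vehicle arrays was left out (adjusted p from 0.0623 to 0.184). The difference between the genotypes, -0.36, was not called (adjusted p over 0.99 in both fits). In WT cells Ifit2 was the 1 member called with the block, against 142 probe sets (0.628%), and none was called without it (3 probe sets, 0.0133%); 1 member had an unadjusted p under 0.05 (3 with the block), against 4.36% of all (9.67%). In KO cells no member was called, against 2 probe sets without the block (0.00884%) and 68 with it (0.301%), and 1 member had an unadjusted p under 0.05 (4 with the block), against 3.66% of all (8.33%).

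Rotenone effects on the other members were small. Over the 35 members the mean effect had a median of 0.04, with 25 positive, against a median of 0.02 and 58.6% positive over all probe sets, and it ran from -0.23 for Ifi35 to 0.52 for Ifit2. Ifi35 was lower with rotenone in all 6 pairs (-0.23, SE 0.10, adjusted p = 0.611; with the block 0.102). In KO cells 28 members had a positive estimate (median 0.06) and in WT cells 18 (median 0.00, and -0.01 with array medians made equal), over all probe sets 57.8% and 55.1%. These counts and medians moved with single arrays, in fits with the block: the WT count was 11 (median -0.05) without WT vehicle number 1 and 23 (median 0.05) without WT vehicle number 2, and the KO median was 0.13 without KO vehicle number 1. The median of the mean effect lay between 0.02 and 0.06 when single arrays were left out. Among probe sets below the median level 68.2% were positive in KO cells (median 0.05) and 58.2% in WT cells (median 0.02). For the mean effect 67.2% of them were positive (median 0.04). Arrays did not overlap between rotenone and vehicle for 5 members in KO cells, all higher (Ifit3, Mx1, Rsad2, Rtp4 and Cxcl10), against 7.19% of all probe sets higher and 4.06% lower, and for 2 in WT cells, both lower (Bst2 and Ifitm3), against 4.47% higher and 2.87% lower. None of these 7 was called.

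Members also differed between replicate numbers, in both directions. With the 4 groups accounted for, 9 of 35 members differed between number 3 and the mean of numbers 1 and 2, 3 higher and 6 lower, against 23.9% of all probe sets (12.6% higher and 11.3% lower), so the share was near the background. Ifit2 was 1.83-fold higher in number 3 (0.88, SE 0.09, adjusted p = 9.09e-06), and Oas1a (0.25) and Irf1 (0.24) were also higher. Irgm1 was 1.58-fold lower (-0.66, SE 0.11, adjusted p = 4.71e-04) and Isg20 1.31-fold lower (-0.39, adjusted p = 0.00124). Trim30a (-0.28), Usp18 (-0.25), Ifit3 (-0.23) and Ifi35 (-0.23) were lower too, with adjusted p-values from 0.0234 to 0.0374. Members of the same family went opposite ways, Ifit2 up and Ifit3 down. Without KO rotenone number 3 only 4 members were called and without KO vehicle number 3 only 3. The share of all probe sets called in those fits is not reported here, so whether the drop is particular to the members is unknown. Leukocyte and macrophage markers moved with the number as well: 9 of 14 were higher in number 3 and none lower (median 0.34). Lyz1 and Lyz2, which encode lysozymes, were higher by 3.46 and 2.26, while Ptprc, the general leukocyte marker, differed by 0.13 and was not called. The part of the cells that these markers stand for in the members' differences between numbers was not tested.

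**Figure D5:**
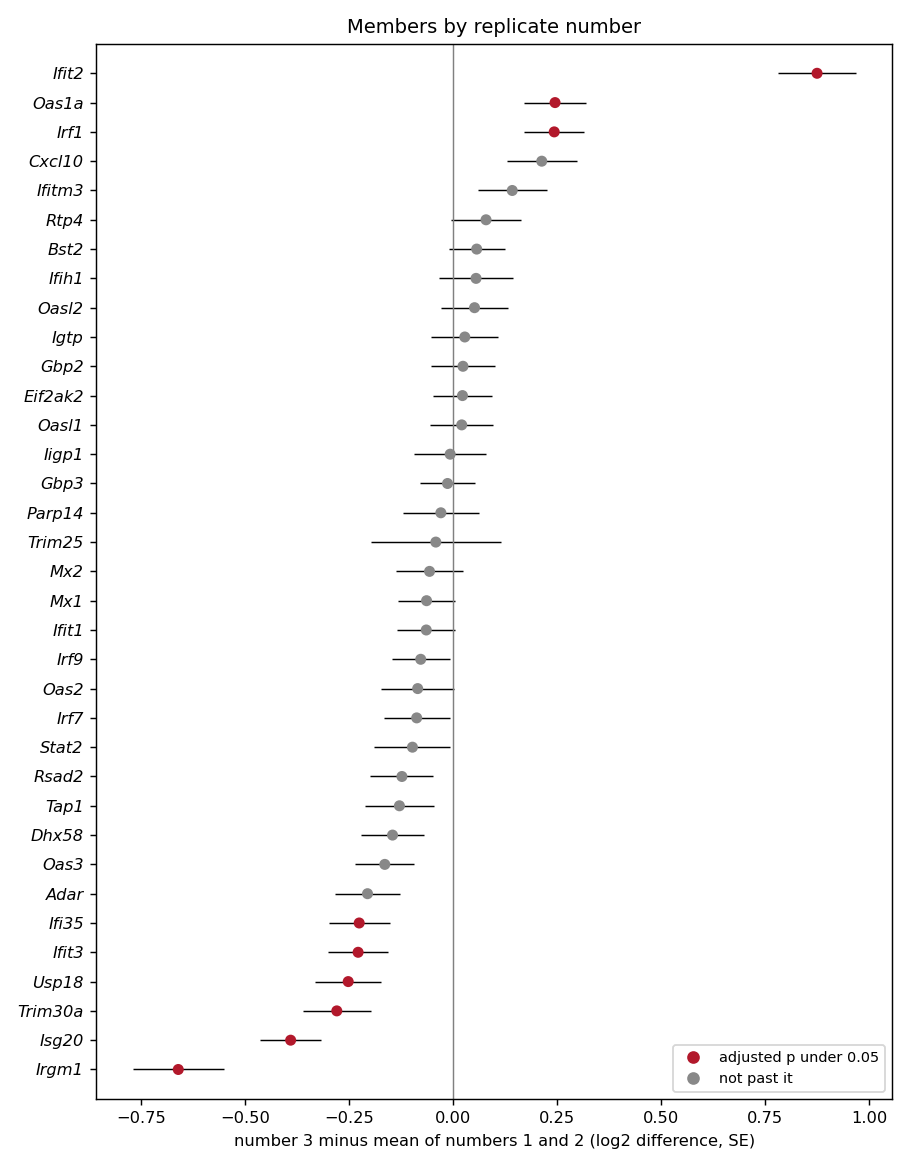
Difference between arrays numbered 3 and the mean of arrays numbered 1 and 2 (x axis, log2, with SE from limma with the groups as a block) for each of the 35 members (rows), red where called. Ifit2 lies farthest right at 0.88 and Irgm1 farthest left at -0.66, with 9 members called.

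The rest of the interferon pathway was read from 4 further lists, and none of their genes was called for genotype, rotenone or the interaction in either fit. Of 29 further interferon-stimulated genes 24 had a positive mean genotype difference, with a median of 0.11. Lgals9, a galectin, differed by 0.31 and Lgals3bp, a secreted galectin partner, by 0.28. Of 13 antigen presentation genes all were positive (median 0.07), with Psmb8, an immunoproteasome subunit, at 0.27 and B2m, the class I light chain, at 0.09. Over all probe sets 54.6% were positive (median 0.01), and among those below the median level 68.0% (median 0.04). Of 16 genes of interferon induction 9 were positive (median 0.01), near the share of all probe sets. Ifnb1, which encodes interferon beta, differed by 0.12 from a dim signal with a mean of 6.05. Of 16 genes of receptors and signalling 6 were positive (median -0.06), with Ifnar1, a chain of the type I receptor, at -0.23 and Ifnar2 at 0.01. The lists differed in level: 14 of these 16 genes exceeded the 40th percentile of probe set levels. So did 6 of the 16 induction genes, 9 of the 13 antigen presentation genes and 15 of the 29 further genes. The part of level in these counts was not tested. Genes in these sentences were picked for their role or size after their values were seen.

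Fibroblast markers gave bright signals, and no marker of another cell type was called for genotype. Among the fibroblast markers 12 of 12 exceeded the 40th percentile of probe set levels, with Vim and Col1a2 at means of 13.99 and 13.93, against 6 of 14 leukocyte, 1 of 7 endothelial and 3 of 7 epithelial markers. Pdgfra, a fibroblast receptor, was the 1 marker called in these comparisons, lower by 0.62 with rotenone with the block (adjusted p = 0.0315). No leukocyte marker was called for genotype. Of the 14, 11 were positive in the mean (median 0.10, near the members' median). Over all probe sets 54.6% were positive, and among those below the median level 68.0%. The mean level over the 14 ranged from 6.57 to 7.17 on KO rotenone arrays against 6.48 to 7.10 on WT rotenone arrays, and from 6.50 to 7.18 on KO vehicle arrays against 6.41 to 7.10 on WT vehicle arrays. Ptprc had a mean of 5.23 and a genotype difference of -0.01. RMA gives no level of 0, and the part of such cells in the members' differences was not tested.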

How the data were processed

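Transcripts were measured on 12 Affymetrix arrays. The authors deposited log2 values, and the submitters' processing notes name RMA with no version or setting. RMA compresses differences near background and would hide a shift shared by most transcripts. Values ran from 3.19 to 14.59 and array medians from 7.53 to 7.58; nothing further was applied. Of 22690 probe sets, 64 array controls were left out. Platform annotation gave 1 symbol to 20380 of the 22626 tested, several to 691 and none to 1555. Differences were tested with limma 3.58.1 in R 4.3.3 (two-sided, 4 group means, 12 arrays), and the code was tested on simulated data. The replicate numbers were taken to pair the arrays because deviations from group means correlated in all 18 same-numbered pairs (r from 0.289 to 0.829). The 36 different-numbered pairs overlapped them (r from -0.688 to 0.476), and the pairing comes from the data, not the labels. Number 3 stood apart, but numbers 1 and 2 were not told apart throughout. WT vehicle number 2 correlated more with KO vehicle number 1 (r = 0.466) than with KO vehicle number 2 (r = 0.371). For WT vehicle number 1 the same-numbered array gave the higher value (0.382 against 0.318). Counts of same-numbered pairs therefore rest on an assumed pairing.

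Members, lists and tests were chosen with earlier results of these data known. Array values are given for members called in any comparison, with or without the block, for the 3 smallest p-values of each, for the 3 widest and narrowest ranges, and where genotypes did not overlap. Alternatives were the number as a block, median and quantile scaling, a filter on dim probe sets, a trended prior, averaged probe sets and leaving out arrays or numbers. Combining the block with another setting or with leaving out single arrays, and the number as a random effect, were chosen after seeing the data. Sequences are from RefSeq (GRCm38.p6). The number of arrays limits the precision.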

Additional observations from a re-analysis of the deposited data

Results flagged for a closer look

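Mx1 drew attention because its genotype difference had opposite signs in the 2 treatments in all same-numbered pairs: higher in KO in 3 of 3 rotenone pairs and lower in KO in 3 of 3 vehicle pairs. Rotenone arrays also exceeded vehicle arrays in every KO pair and lay below them in every WT pair. Some steps were tiny: in number 1 the KO minus WT difference was 0.03 in rotenone and -0.01 in vehicle. The pairing is assumed, and the share of all probe sets with such a pattern is not reported here. The interaction was 0.26 on the log2 scale (SE 0.13, limma unadjusted p = 0.0666), and it was not called in either fit. Mx1 had the second narrowest range of the 35 members, 0.36 over the 12 arrays, and a mean level of 4.17, among the dimmest signals.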

How the results depend on the processing

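Without a block no member was called for genotype, rotenone or their interaction, nor with equal medians, quantile scaling, a filter on dim probe sets, a trended prior or averaged probe sets. With the replicate block, the mean genotype difference had 3 called members; with the block it had 2 after equal medians, 2 after quantile scaling, 3 with a trended prior, 3 with averaged probe sets and 1 without dim probe sets. The mean rotenone effect and that in WT cells had 1 (Ifit2) in each of these 6 fits with the block. The filter, at the 40th percentile of level, left out Ifit1 (percentile 24.2) and Usp18 (28.8) before testing, so neither was tested there. Leaving out 1 array or 1 replicate number gave 0 to 3 called members for the mean genotype difference without the block and 0 to 5 with it, 0 and 0 to 2 for genotype in vehicle, 0 to 1 and 0 to 2 for the mean rotenone effect, and 0 and 0 to 1 for rotenone in WT cells; the upper values came without number 3, except that rotenone in WT cells and in the mean also reached them without single arrays. It gave 0 in both fits for genotype in rotenone, rotenone in KO cells and the interaction. For number 3 against numbers 1 and 2 it gave 3 to 9, and for genotype by number 0 to 2, 2 without WT vehicle number 3. Shares of all probe sets called were given above for the fits on all arrays with and without the block. They are not reported here for the other settings, so whether the members' counts there differ from background is unknown. For the mean genotype difference 32 of 35 members were positive under equal medians and 31 under quantile scaling.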

Other observations

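A probe set annotated to Isg15 and its copy Gm9706 had a mean level of 7.41. It was 0.38 higher in KO in the mean of both treatments (limma adjusted p = 0.809; with the replicate block 0.0428), a difference near those of Usp18 and Ifit1, and the mean rotenone effect was -0.01. Which of the 2 transcripts gave the signal cannot be told from these arrays. A probe set shared by Trim30d and Trim30a differed by 0.08 between genotypes.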
